A study of Arabidopsis thaliana with 12 samples.

Results

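The response of wild-type Arabidopsis rosettes to iron deficiency was described from the 6 rosette libraries of a series of 12. The comparison sets 3 Fe-deficient libraries against 3 control libraries and covers every locus of the rosette table, transgene rows aside, with a mean of at least 1 RPKM (reads scaled by transcript length and library size) over the 6 columns. All plants were accession Columbia-0 (WT Col-0), grown in vitro on sucrose medium under continuous light. Fe-deficient plants were moved after 10 days to plates without iron, where 100 µM FerroZine bound residual ferrous iron, and control plants to complete plates. Whole rosettes were collected 72 h after the move and polyadenylated RNA was sequenced. Nothing in the labels ties the replicates of a group to separate plates, so p-values measure the spread between libraries, which may be technical.

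Most iron of a leaf sits in chloroplasts, where photosystem I, the cytochrome b6f complex and ferredoxin bind iron in hemes and iron-sulfur clusters. Ferritins store iron in the plastid, and mitochondria use iron in the respiratory chain. A cascade of basic helix-loop-helix (bHLH) factors, held in check by the ubiquitin ligase BTS, controls the transcripts of iron uptake and distribution. Leaves short of iron are known to lower storage proteins and many iron-binding proteins and to lose chlorophyll.

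Of 33607 loci, 19006 were tested, and 372 (1.96%) were called. At an adjusted p under 0.05 (limma on log2(RPKM + 0.5), Benjamini-Hochberg over all genes tested), 243 genes were lower in Fe-deficient rosettes, or 1.28% of those tested, and 129 were higher, or 0.679%. The falls were more often modest. Of the 243, 169 fell by less than 2-fold (0.889% of tested genes) and 74 by at least 2-fold (0.389%), while the higher genes divided into 57 below 2-fold (0.3%) and 72 at or above it (0.379%). Among called genes, those with modest changes in either direction were the more abundant ones. Small changes may be easier to call in abundant genes, which was not tested. For modest falls the median level over the 6 libraries was 34.5 RPKM, against 20.7 RPKM for falls of at least 2-fold. For modest rises it was 30.2 RPKM, against 18.9 RPKM for rises of at least 2-fold. Over all genes tested it was 12.5 RPKM. In Fe-deficient rosettes the modest falls stood at a median of 69.4% of the control mean, with a range of 37.4% to 85.2%. Their median log2 fold change was -0.52. The 2-fold limit is on the log2(RPKM + 0.5) scale, so a gene of low level can lie below 50% of control and still count as modest. Across all genes tested the median log2 fold change was 0.00 (0.00103) and 49.3% of the values were negative.

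**Figure D1:**
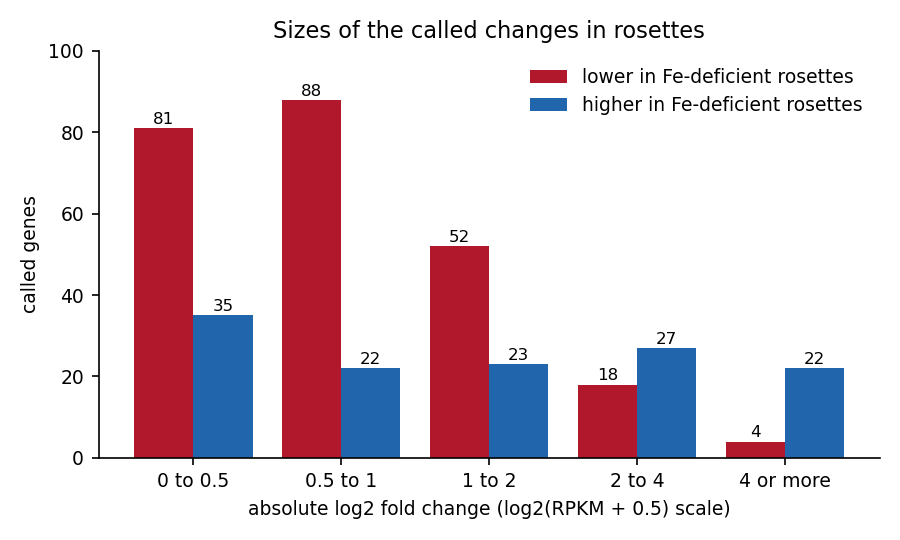
Number of called genes (vertical axis) by absolute log2 fold change on the log2(RPKM + 0.5) scale (horizontal axis), for genes lower and genes higher in Fe-deficient than in control rosettes. Below an absolute log2 fold change of 0.5 there were 81 lower and 35 higher genes, and at 4 or more the balance turned to 4 lower and 22 higher.

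The modest falls were less secure calls than the larger falls. Of the 169, 30 were called in every fit without 1 library and 47 in none, and leaving out control replicate 1 gave 36 modest falls where leaving out Fe-deficient replicate 1 gave 157. With control replicate 2 or 3 left out there were 42 and 52, and with Fe-deficient replicate 2 or 3 left out 63 and 57. Of the 74 larger falls, 52 were called in every such fit and 2 in none. For the 57 modest rises these numbers were 8 and 28. Within the groups, libraries correlated at 0.977 to 0.988 across tested genes, against 0.959 to 0.973 between the groups. The summed level of 6 leaf markers was 12280 to 12770 RPKM in Fe-deficient libraries and 11680 to 12760 RPKM in control libraries. RCA was at 2616.5 RPKM in all 6 libraries and RBCS1A at 7618.66 or 6504.34 RPKM, ties left by the scaling of the values. The leaf sums therefore cannot show equal leaf content. The 6 root markers summed to 104.9 to 139.8 RPKM and to 122.5 to 143.4 RPKM, nearly all of it PYK10, with none of the other 5 above 1.53 RPKM, and none of the 5 seed markers exceeded 0.34 RPKM. None of the 6 leaf markers and not the 1 root marker tested was called. The other 5 root markers and the 5 seed markers lay below the level filter, so they could not be called. No marker was listed at 0 in every library. In these bulk samples, fewer cells of a type and less RNA per cell cannot be told apart.

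Regulators of the iron response were examined first, as background to the falls. Counts of called members in this and later lists compare with 1.28% lower and 0.679% higher among all genes tested. Of 20 listed regulators 18 were tested, and 11 were higher and 1 lower, with a median log2 fold change of 2.66. BTS (AT3G18290), which targets bHLH factors for degradation, stood at 263, 256 and 254 RPKM in Fe-deficient rosettes, against 24.7, 24.2 and 22.7 RPKM in control rosettes. PYE (AT3G47640), a bHLH factor that represses iron-distribution genes, stood at 40.7, 32.9 and 35.2 RPKM in Fe-deficient rosettes, against 5.79, 4.19 and 5.2 RPKM in controls. The groups of both genes were far apart. On the log2 scale BTS rose by 3.41 (SE 0.0454, adjusted p 1.84e-06) and PYE by 2.73 (SE 0.132, adjusted p 0.000251). The lower regulator was bHLH11 (AT4G36060), at 0.93, 0.86 and 0.95 RPKM in Fe-deficient rosettes, against 2.54, 2.62 and 1.93 RPKM in controls. Its log2 fold change was -1.01 (adjusted p 0.0206). The call was kept only without control replicate 3 (adjusted p 0.0579 to 0.104 without each other library). The gene overlaps AT4G36070 on the opposite strand and shares a near-identical stretch with it. Overlapping bases were not set aside in that search, so here and below such a stretch can be the overlap itself.

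The hexamer CACGTG (G-box), to which bHLH factors bind, was counted in windows from 250 bases before to 50 bases into each gene, on the RefSeq TAIR10.1 sequence, where it reads alike on both strands. It was present in 35 of 125 windows of higher genes (28%), in 33 of 239 of lower genes (13.8%) and in 1643 of 18819 of all genes tested (8.73%). Among genes higher by at least 2-fold the share was 35.3%. Among falls of at least 2-fold it was 19.2% and among falls of less than 2-fold 11.4% (19 of 166). The modest falls thus lay nearest to the share of all genes. A set of 5 windows is shown, 3 of regulators that rose and 2 of iron-sulfur subunit genes that fell, each as the 250 bases before the annotated start with the G-box in capitals.
BTS, chr3:6273716-6273965, plus strand: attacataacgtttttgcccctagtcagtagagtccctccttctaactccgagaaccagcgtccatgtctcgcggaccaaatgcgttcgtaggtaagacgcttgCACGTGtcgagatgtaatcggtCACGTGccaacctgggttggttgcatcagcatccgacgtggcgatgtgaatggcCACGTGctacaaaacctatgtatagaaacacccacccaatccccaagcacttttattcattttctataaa
BHLH100, chr2:17199455-17199704, minus strand: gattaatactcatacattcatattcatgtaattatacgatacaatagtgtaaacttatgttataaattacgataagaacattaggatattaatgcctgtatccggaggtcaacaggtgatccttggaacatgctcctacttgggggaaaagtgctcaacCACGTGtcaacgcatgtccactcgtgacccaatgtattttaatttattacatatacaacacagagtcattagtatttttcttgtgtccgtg
bHLH38, chr3:21085246-21085495, minus strand: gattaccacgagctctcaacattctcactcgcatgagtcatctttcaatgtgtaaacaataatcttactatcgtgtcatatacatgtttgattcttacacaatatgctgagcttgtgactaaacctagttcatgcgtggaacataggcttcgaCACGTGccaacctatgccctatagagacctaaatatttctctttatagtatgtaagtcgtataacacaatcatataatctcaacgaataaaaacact
SDH2-1, chr3:10132883-10133132, minus strand: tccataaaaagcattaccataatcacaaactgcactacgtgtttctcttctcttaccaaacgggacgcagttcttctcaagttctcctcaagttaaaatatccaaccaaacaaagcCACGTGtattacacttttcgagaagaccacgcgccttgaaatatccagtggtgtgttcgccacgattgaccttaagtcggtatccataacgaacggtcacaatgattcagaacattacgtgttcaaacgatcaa
SDH2-2, chr5:16281144-16281393, plus strand: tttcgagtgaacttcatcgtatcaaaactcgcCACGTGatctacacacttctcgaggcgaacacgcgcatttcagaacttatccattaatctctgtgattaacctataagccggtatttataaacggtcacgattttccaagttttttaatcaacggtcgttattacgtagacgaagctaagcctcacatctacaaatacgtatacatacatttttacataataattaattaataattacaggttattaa
The upstream stretch of BTS held 3 copies, beginning 146, 124 and 70 bases before the start, and each of the other 4 held 1 copy. Those lay 91 bases upstream in BHLH100, 97 in bHLH38, 134 in SDH2-1 and 218 in SDH2-2. A match describes these letters only. The evening element AAAATATCT of circadian genes was in 0 of 125 windows of higher genes, 4.60% of lower genes and 3.05% of all. Shares for the phosphate motif GNATATNC were 8%, 7.11% and 6.16% in the same order. Split by size, this motif was in 13.7% of falls of at least 2-fold (10 of 73) and in 4.22% of falls of less than 2-fold. The evening element was in 6.85% and 3.61% of the same falls. For GTAC, the core bound by the copper regulator SPL7, the shares of higher genes, lower genes and all were 44.8%, 41% and 39.4%. The iron-dependent regulatory sequence known from FER1 was in none of the 18819 windows, that of FER1 included. This search therefore could not detect that element, and its count says nothing about other genes.

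**Figure D2:**
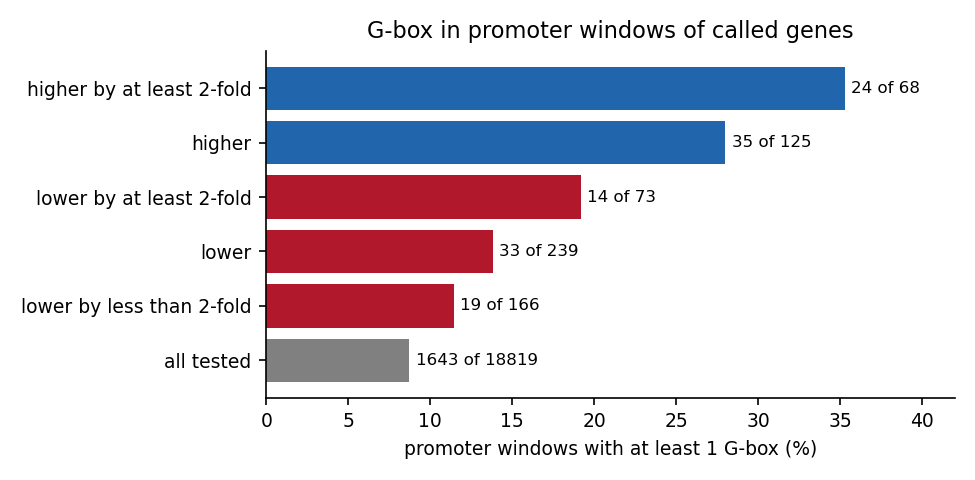
Share of promoter windows (250 bases before to 50 bases into each gene) with at least 1 G-box on the horizontal axis, by direction and size of change, with counts beside the bars. Genes higher in Fe-deficient rosettes by at least 2-fold had 24 of 68, genes lower by less than 2-fold 19 of 166, and all genes tested 1643 of 18819.

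Transcripts of metal transport moved in both directions. Of 55 listed genes 41 were tested, 7 were higher and 7 lower, and the median log2 fold change was -0.03. ZIF1 (AT5G13740), a vacuolar transporter of the iron chelator nicotianamine, was at 209, 206 and 205 RPKM in Fe-deficient rosettes, against 21.9, 21.8 and 19.7 RPKM in controls, or 979% of the control mean (adjusted p 2.6e-06). NRAMP4 (AT5G67330), which exports iron from the vacuole, rose by 2.31, to 99.8, 92 and 103 RPKM in Fe-deficient rosettes, against 20.1, 18.3 and 19.9 RPKM in controls. On the other side stood genes that load iron into vacuoles and along veins. AT1G21140, of the vacuolar iron transporter family, was at 0.39, 0.33 and 0.35 RPKM in Fe-deficient rosettes and at 7.38, 5.76 and 4.31 RPKM in controls, a log2 fold change of -2.85 (adjusted p 0.00105). Of the 5 tested members of that family 3 fell, with AT1G76800 at -2.23 and AT3G25190 at -1.15, and AT1G76800 lost its call without control replicate 2 (adjusted p 0.0529). YSL1 (AT4G24120), which carries iron-nicotianamine complexes, stood at 5.11, 7.61 and 8.43 RPKM in Fe-deficient rosettes, against 36.6, 33.2 and 36.1 RPKM in controls (log2 fold change -2.27, SE 0.175, adjusted p 0.0022). Its relative YSL3 (AT5G53550) fell modestly, by 0.84 on the log2 scale, and lost the call without Fe-deficient replicate 3 or any 1 control library (adjusted p 0.0646 to 0.105). Nicotianamine synthases split by gene. NAS4 (AT1G56430) was at 131, 104 and 103 RPKM in Fe-deficient rosettes, against 18.4, 19.9 and 15.8 RPKM in controls, and NAS3 (AT1G09240) at 2.59, 3.97 and 3.69 RPKM, against 17.1, 18.9 and 13.5 RPKM. Neither pair of groups overlapped, as in all 72 rises and 74 falls of at least 2-fold. The log2 fold changes were 2.61 (adjusted p 0.000242) and -2.12 (adjusted p 0.00355).

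Ferritins fell steeply, while few genes of iron-sulfur cluster assembly were called. Ferritins, the plastid storage proteins, fell in all 3 tested members. FER3 (AT3G56090), the one with the highest level in Fe-deficient rosettes, kept 28.2, 31.1 and 30.2 RPKM in Fe-deficient rosettes, against 90.4, 96.6 and 115 RPKM in controls, and fell by 1.73 on the log2 scale (SE 0.0947, adjusted p 0.000445). For FER1 (AT5G01600) the values were 7.42, 7.61 and 8.88 RPKM in Fe-deficient rosettes, against 222, 186 and 289 RPKM in controls. Of 30 tested genes of iron-sulfur cluster assembly, 2 fell and none rose, with a median of -0.06, and 23 of the 30 values were negative. The 2 were NEET (AT5G51720), a 2Fe-2S protein, and ABCI8 (AT4G04770), the SUFB scaffold subunit of the plastid assembly system. NEET was at 3.87, 4.72 and 3.01 RPKM in Fe-deficient rosettes, against 183, 164 and 165 RPKM in controls. ABCI8 was at 15.3, 17.3 and 20.6 RPKM in Fe-deficient rosettes, against 120, 123 and 120 RPKM in controls (log2 fold change -2.75, SE 0.104, adjusted p 7.92e-05). ABCI8 overlaps AT4G04760 on the opposite strand. The nearest of the others was the plastid glutaredoxin CXIP2 (GRXS16), at -0.27 with an adjusted p of 0.0535.

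Enzymes that use iron as heme, iron-sulfur cluster or bound metal, counted with their subunits, made up the largest group of falls among the lists. A listed subunit need not bind iron itself. Of 37 tested, 12 fell and 1 rose, with a median log2 fold change of -0.19. They span redox defence, electron transfer and the assimilation of sulfur and nitrogen. Ascorbate peroxidases detoxify hydrogen peroxide with a heme. The stromal SAPX (AT4G08390) stood at 7.27, 10.8 and 11.5 RPKM in Fe-deficient rosettes, against 106, 103 and 106 RPKM in controls, and the cytosolic APX1 (AT1G07890) at 82.1, 95.8 and 97.9 RPKM, against 331, 337 and 406 RPKM. On the log2 scale SAPX fell by 3.38 (SE 0.162, adjusted p 0.000242) and APX1 by 1.95 (SE 0.104, adjusted p 0.000405). Catalases CAT1 (AT1G20630) and CAT3 (AT1G20620) fell by 1.32 and 1.70 on the log2 scale. CAT3 was at 331, 547 and 630 RPKM in Fe-deficient rosettes, against 1385, 1510 and 1861 RPKM in controls, and it was not called without Fe-deficient replicate 2 or any 1 control library (adjusted p 0.102 to 0.129). FSD1 (AT4G25100), the iron superoxide dismutase, was at 11.1, 15.1 and 15.2 RPKM in Fe-deficient rosettes, against 292, 288 and 222 RPKM in controls. The plastid-nucleoid enzyme FSD3 (AT5G23310) fell far less, by 0.31 on the log2 scale, and was called in the fits without 1 library only when Fe-deficient replicate 1 was left out (adjusted p 0.0619 to 0.0949 otherwise).

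In electron transfer and assimilation, the falls ranged from steep to slight. The leaf ferredoxin FED A (AT1G60950) was at 587, 521 and 621 RPKM in Fe-deficient rosettes, against 1731, 1720 and 1698 RPKM in controls (log2 fold change -1.58, SE 0.0728, adjusted p 0.000226). FTRA2 (AT5G08410), a subunit of the ferredoxin-thioredoxin reductase that passes those electrons on, fell by 1.27 (adjusted p 6.42e-05). SIR (AT5G04590), the sulfite reductase with a siroheme and an iron-sulfur cluster, was at 88.9, 75.3 and 94.1 RPKM in Fe-deficient rosettes, against 191, 195 and 196 RPKM in controls (log2 fold change -1.18, SE 0.0842, adjusted p 0.0015). UPM1 (AT5G40850), which makes the siroheme precursor, stood at 45.1, 45.5 and 52.2 RPKM in Fe-deficient rosettes, against 92.8, 93.7 and 86.3 RPKM in controls, a modest fall of 0.93 (SE 0.0706, adjusted p 0.00205). UPM1 overlaps AT5G40855 on the opposite strand and shares a near-identical stretch with it. Nitrite reductase NIR1 (AT2G15620), the other siroheme enzyme, was at 78.2% of the control mean and called at an adjusted p of 0.0448, but not without any 1 library (0.0818 to 0.151). Nitrate reductase NIA2 (AT1G37130), which carries heme and molybdenum, was the 1 higher gene, at 433, 447 and 495 RPKM in Fe-deficient rosettes, against 359, 341 and 361 RPKM in controls. Its log2 fold change was 0.37 (adjusted p 0.0483), and that call too was lost without any 1 library (0.0523 to 0.171). Aconitase ACO3 (AT2G05710), an iron-sulfur enzyme of citrate metabolism, fell by 1.47 (adjusted p 0.000628). AT3G23940, a dehydratase family gene, was at 46.5% of the control mean (adjusted p 0.000777). ACO3 overlaps AT2G05715 on the opposite strand and shares a near-identical stretch with it.

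Smaller families of iron and heme proteins, picked out after their values were seen, held further falls. Of the 6 tested rubredoxin genes, whose proteins bind a single iron, 3 were lower. ENH1 (AT5G17170) was at 9.64, 10.8 and 12.2 RPKM in Fe-deficient rosettes, against 141, 169 and 135 RPKM in controls (log2 fold change -3.71, SE 0.116, adjusted p 3.82e-05). AT5G51010 fell by 1.95 (adjusted p 8.98e-06) and AT1G54500 by 0.77 (adjusted p 0.00756, and 0.053 without control replicate 1), and AT5G51010 overlaps and shares a near-identical stretch with AT5G51020 on the opposite strand. Hemoglobin GLB3 (AT4G32690) fell by 1.36 and the cytochrome b5 gene CB5-C (AT2G46650) by 1.14, at adjusted p of 0.000896 and 0.000938. GLB3 overlaps AT4G32680 on the opposite strand. A rise ran against this direction in TSO2 (AT3G27060), the small subunit of ribonucleotide reductase, which holds a di-iron centre and is needed for DNA synthesis. It was at 161, 148 and 160 RPKM in Fe-deficient rosettes, against 49.6, 58.5 and 55.4 RPKM in controls (log2 fold change 1.51, SE 0.0727, adjusted p 0.000242), and it overlaps AT3G27050 on the same strand. Among 16 listed di-iron desaturases and hydroxylases none fell, and 1 rose. BETA-OHASE 1 (AT4G25700), a carotenoid hydroxylase, was at 88.4, 70.5 and 77.3 RPKM in Fe-deficient rosettes, against 27.4, 29.6 and 22.8 RPKM in controls (log2 fold change 1.55, SE 0.121, adjusted p 0.00238).

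Chlorophyll and heme share the tetrapyrrole pathway, of which 32 genes were listed. All 32 were tested, 4 fell, against 1.28% of all genes tested, and none rose. The number of falls was 2 to 7 when 1 library was left out. In 15 of the 32 every Fe-deficient value lay below every control value, and in none above. Among all genes tested these shares were 11.4% and 10%. The median log2 fold change was -0.13, between -0.15 and -0.10 under every alternative processing, and 28 of 32 values were negative. HEMA1 (AT1G58290), glutamyl-tRNA reductase at the entry of the pathway, stood at 32.4, 27.6 and 32.6 RPKM in Fe-deficient rosettes, against 292, 260 and 254 RPKM in controls. This was the largest fall of the list, at -3.10 (SE 0.0872, adjusted p 2.31e-05). The second isoform HEMA2 (AT1G09940) fell by 0.82, and lost the call without Fe-deficient replicate 2 or any control library (adjusted p 0.105 to 0.139). PCB2 (AT5G18660), the divinyl reductase near the end of the chlorophyll branch, was at 112, 95 and 95.4 RPKM in Fe-deficient rosettes, against 142, 146 and 133 RPKM in controls. Its fall of 0.48 was called at an adjusted p of 0.0417 and in the fits without 1 library only when Fe-deficient replicate 1 was left out (0.106 to 0.168 otherwise). GUN5, the magnesium chelatase subunit CHLH, stood at -0.51 with an adjusted p of 0.0598 and was not called. Of 9 tested genes of chlorophyll breakdown, 1 fell. This was NYC1 (AT4G13250), chlorophyll b reductase, at 5.46, 8.94 and 11.9 RPKM in Fe-deficient rosettes, against 72.8, 94.1 and 85 RPKM in controls (log2 fold change -3.24, SE 0.267, adjusted p 0.00299).

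**Figure D3:**
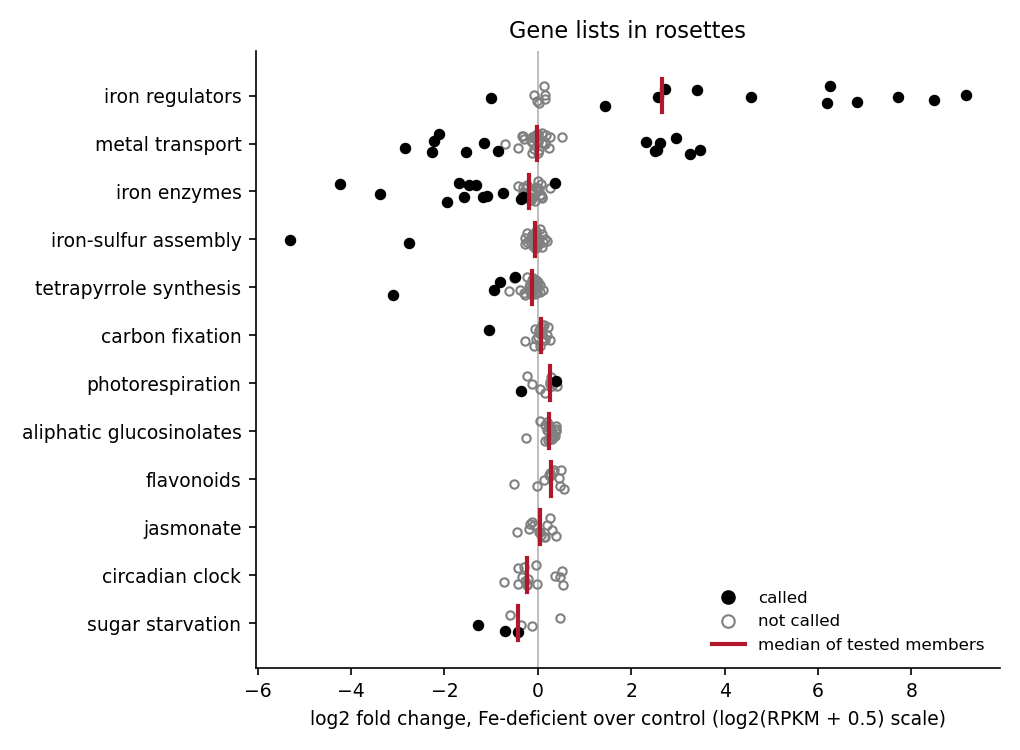
Log2 fold change, Fe-deficient over control, on the log2(RPKM + 0.5) scale (horizontal axis) for each tested gene of 12 lists (rows), with filled points for called genes, open points for genes not called and a bar at the median of tested members. Iron regulators spread up to 9.17, iron enzymes had 12 called falls, and lists such as aliphatic glucosinolates, flavonoids, jasmonate and the clock held no called gene.

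Few photosystem genes were called, and those were mainly subunits of photosystem I. Of 66 tested nuclear genes of photosystems and antennae, 4 fell (6.06%, against 1.28% of all genes tested) and none rose. Their median log2 fold change was -0.18 and 53 of 66 values were negative, with a median between -0.24 and -0.11 over all alternatives. All 14 photosystem I subunits had negative values, with a median of -0.21, and 3 were called. PSAN (AT5G64040), on the lumenal side, was at 703, 530 and 508 RPKM in Fe-deficient rosettes, against 1670, 1609 and 1690 RPKM in controls. PSAF (AT1G31330), which docks plastocyanin, was at 1237, 1095 and 1050 RPKM in Fe-deficient rosettes, against 2264, 2310 and 2264 RPKM in controls. PSAD-2 (AT1G03130), on the ferredoxin side, was at 471, 393 and 395 RPKM in Fe-deficient rosettes, against 892, 785 and 781 RPKM in controls. These were falls of 1.53 (SE 0.127, adjusted p 0.00308), 1.02 (SE 0.0731, adjusted p 0.00151) and 0.97 (SE 0.0931, adjusted p 0.0057) on the log2 scale, called in every fit without 1 library. PSAN overlaps AT5G64030 on the opposite strand and PSAD-2 overlaps AT1G03140 on its own strand. Photosystem II had 1 called gene of 14 tested subunits, PSBTN (AT3G21055), at 62.8% of the control mean (log2 fold change -0.67, adjusted p 0.00718). None of 14 antenna genes of photosystem II and none of 4 of photosystem I was called, with medians of -0.22 and -0.20.

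Other thylakoid genes fell beside them. AT2G26500, annotated as a subunit (petM) of the cytochrome b6f complex that links the photosystems, was at 308, 322 and 295 RPKM in Fe-deficient rosettes, against 899, 944 and 888 RPKM in controls. Its log2 fold change of -1.56 (SE 0.0512, adjusted p 4.62e-05) exceeded that of every called photosystem subunit. The thylakoid phosphoprotein gene AT3G47070 fell by 1.13 (adjusted p 0.00486), and ATPD (AT4G09650), the delta subunit of the plastid ATP synthase, by 0.41 (adjusted p 0.0337). ATPD lost its call without any library other than Fe-deficient replicate 1 (0.109 to 0.153), and AT3G47070 overlaps AT3G47060 on the opposite strand with a near-identical stretch. Regulators of plastid genes gave 2 falls among 10 listed. SIGA (AT1G64860), a sigma factor of the plastid RNA polymerase, was at 32.7, 23.2 and 28.4 RPKM in Fe-deficient rosettes, against 80.4, 78.4 and 67.7 RPKM in controls (log2 fold change -1.42, SE 0.135, adjusted p 0.00554). GNC (AT5G56860), a GATA factor of chloroplast development, stood at 71% of the control mean (adjusted p 0.0223, and 0.0526 to 0.102 without any 1 library).

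The modest falls were then read by function. In the class of respiratory chain genes 2 of 67 tested fell (2.99%, against 1.28% of all genes tested) and none rose. Both encode the iron-sulfur subunit of complex II, in 2 gene copies. SDH2-1 (AT3G27380) was at 21.4, 22.7 and 24.2 RPKM in Fe-deficient rosettes, against 37.6, 36.2 and 40.8 RPKM in controls, and SDH2-2 (AT5G40650) at 16.7, 16 and 16.4 RPKM, against 29.4, 30 and 35.1 RPKM. SDH2-1 fell by 0.74 (SE 0.0694, adjusted p 0.00537) and SDH2-2 by 0.92 (SE 0.0774, adjusted p 0.00324) on the log2 scale, and each was called in every fit without 1 library. Both overlap and share a near-identical stretch with another gene, SDH2-1 on the same strand and SDH2-2 on the opposite one. The class does not hold the cytochrome c1 gene AT3G27240. Cytochromes c and c1 were looked up after this was seen, and 2 of 3 were lower. AT3G27240, of the cytochrome c1 family, was at 37.5, 37 and 39.4 RPKM in Fe-deficient rosettes, against 63.5, 62.2 and 66.1 RPKM in controls (log2 fold change -0.74, SE 0.0458, adjusted p 0.000777). It overlaps AT3G27230 on the opposite strand and shares a near-identical stretch with it. CYTC-2 (AT4G10040), a cytochrome c, fell by 0.80, and lost the call without Fe-deficient replicate 3 or any control library (0.0789 to 0.0893).

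Peroxisomal genes gave a few small falls. PEX11E (AT3G61070), which acts in peroxisome division, was at 8.46, 8.33 and 9.52 RPKM in Fe-deficient rosettes, against 16, 16.4 and 16.6 RPKM in controls (log2 fold change -0.86, SE 0.0689, adjusted p 0.00263). PEX14 (AT5G62810), part of the protein import site, fell by 0.61 (adjusted p 0.0061), and these 2 of 18 tested peroxins were called in every fit without 1 library. Both overlap a gene on the opposite strand. The peroxisomal protease LON2 (AT5G47040) was at 77.6% of the control mean (adjusted p 0.0268), and the photorespiratory aminotransferase AGT (AT2G13360) also at 77.6% (adjusted p 0.0298). Without any library other than Fe-deficient replicate 1, neither was called (0.102 to 0.135 for LON2 and 0.0786 to 0.133 for AGT). Of 11 listed photorespiration genes, 1 other was called, in the opposite direction. GS2 (AT5G35630), plastid glutamine synthetase, stood at 1025, 974 and 1001 RPKM in Fe-deficient rosettes, against 749, 777 and 749 RPKM in controls. Its rise of 0.40 (SE 0.0453, adjusted p 0.0116) lost the call without Fe-deficient replicate 3 or control replicate 1 or 3 (0.053, 0.0852 and 0.0806). The list's median was 0.25, with 8 of 11 values positive.

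**Figure D4:**
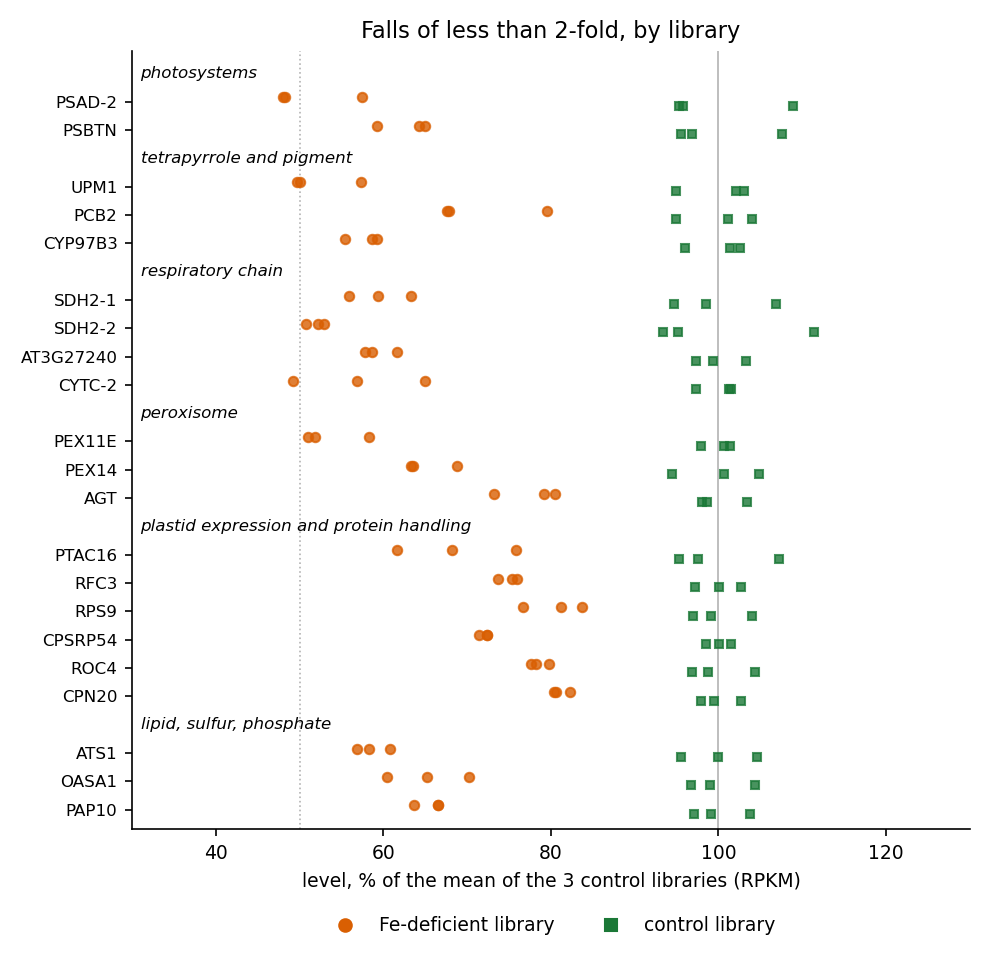
Level in each library as a percentage of the mean of the 3 control libraries (horizontal axis) for 21 genes that fell by less than 2-fold (rows, by role), with Fe-deficient libraries as circles above control libraries as squares. Every circle lies left of every square of its gene, as holds for all 169 modest falls. The dotted line marks 50%, and the group means run from 51.2% for PSAD-2 to 81% for CPN20.

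Plastid gene expression and protein handling formed another set of small changes in abundant transcripts. Of 15 tested genes of the plastid transcriptionally active chromosome, which surrounds the plastid polymerase, 3 fell, against 1.28% of all genes tested. The median was -0.18. PTAC16 (AT3G46780) was the most abundant of the 3, at 309, 278 and 251 RPKM in Fe-deficient rosettes, against 436, 397 and 388 RPKM in controls (log2 fold change -0.55, adjusted p 0.0424). PTAC15 and PTAC3 were at 74.5% and 85.2% of the control mean. PTAC15 and PTAC3 lost the call without any 1 library (0.0813 to 0.175) and PTAC16 without any but Fe-deficient replicate 1 (0.0994 to 0.159). CPSRP54 (AT5G03940), the signal recognition particle subunit that delivers antenna proteins to thylakoids, was steadier. It was at 108, 108 and 106 RPKM in Fe-deficient rosettes, against 147, 149 and 151 RPKM in controls, a fall of 0.47 (SE 0.0342, adjusted p 0.00161) called in every fit without 1 library. It overlaps AT5G03930 on the opposite strand. RFC3 (AT3G17170), an S6-like plastid ribosomal protein gene, was at 88.5, 86.5 and 89.3 RPKM in Fe-deficient rosettes, against 114, 118 and 121 RPKM in controls (log2 fold change -0.41, SE 0.0388, adjusted p 0.00532), and it too was called in every such fit, with AT3G17160 overlapping it on the opposite strand. Among the chaperones, the stromal cochaperonin CPN20 (AT5G20720) was at 81% of the control mean (adjusted p 0.0222). The cyclophilin ROC4 (AT3G62030) was at 78.5% (adjusted p 0.019), 1 of 3 lower genes among 47 tested peptidyl-prolyl isomerases. CPN20 was lost without any 1 library (0.0526 to 0.122) and ROC4 without any but Fe-deficient replicate 1 (0.072 to 0.0937), and both overlap genes on the opposite strand.

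Few ribosomal protein genes were called, while most had small negative values. Of 317 tested, 6 fell and 1 rose, a share of 1.89% lower against the 1.28% of all genes, while 256 of the 317 values (80.8%) were negative and the median log2 fold change was -0.09. In 119 of them the Fe-deficient values lay below all control values, and in 6 above. Among all genes tested these shares were 11.4% and 10%. For the 150 annotated to the cytosol, 137 values were negative and the median was -0.11, between -0.13 and -0.08 over all alternatives. The 62 annotated to plastids had 52 negative values and a median of -0.10, and 22 genes are annotated to both places and counted in both. With 1 library left out, 1 to 4 members were called lower. AT2G44120, of the L30/L7 family, was at 129, 128 and 122 RPKM in Fe-deficient rosettes, against 156, 155 and 156 RPKM in controls (log2 fold change -0.30, adjusted p 0.019). RPS9 (AT1G74970), of the plastid small subunit, was at 80.6% of the control mean (adjusted p 0.0434) and AT5G24490, annotated as a 30S protein, at 78% (adjusted p 0.0311). The first lost its call without any library but Fe-deficient replicate 1 (0.0725 to 0.11), RPS9 without any 1 library (0.055 to 0.169), and AT5G24490 without any but Fe-deficient replicate 2 (0.058 to 0.142). AT5G24490 also overlaps AT5G24500 on the opposite strand and shares a near-identical stretch with it. Many cytosolic members have close copies, and how the authors' counting divided shared reads is not given in the sources used here. The exception was RPL16A (AT2G42740), at 33.9, 31.2 and 29.9 RPKM in Fe-deficient rosettes, against 22.7, 24.3 and 22.3 RPKM in controls (log2 fold change 0.44, adjusted p 0.03, and 0.0547 to 0.141 without any 1 library). It lies 122 bases from AT2G42750, on the same strand, which rose by 2.27.

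**Figure D5:**
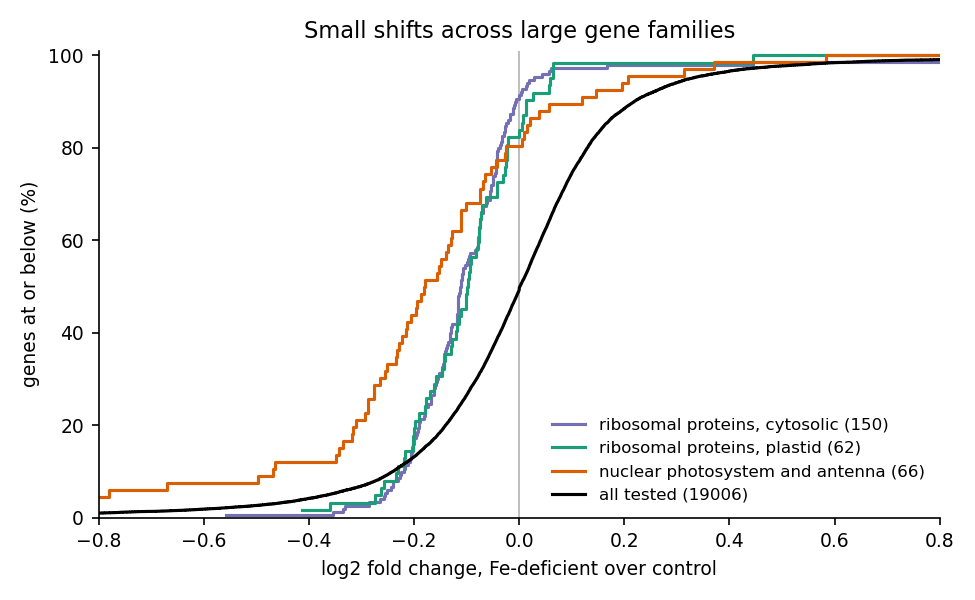
Cumulative share of genes (vertical axis, %) at or below each log2 fold change, Fe-deficient over control (horizontal axis), for cytosolic and plastid ribosomal proteins (22 genes are in both), nuclear photosystem and antenna genes and all genes tested. The medians are -0.11, -0.10, -0.18 and 0.00, and the ribosomal curves are steep and lie left of 0 over most of their length.

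Genes of carbon, lipid, sulfur and phosphate metabolism fell singly. In carbon fixation 1 of 18 genes was called. RPE (AT5G61410), ribulose-phosphate epimerase, was at 186, 160 and 169 RPKM in Fe-deficient rosettes, against 345, 393 and 330 RPKM in controls (log2 fold change -1.05, SE 0.086, adjusted p 0.00296), while the list's median was 0.07. ATS1 (AT1G32200), the plastid glycerol-phosphate acyltransferase of galactolipid synthesis, stood at 30.4, 28.5 and 29.2 RPKM in Fe-deficient rosettes, against 50, 52.4 and 47.8 RPKM in controls (log2 fold change -0.76, SE 0.052, adjusted p 0.00121). CYP97B3 (AT4G15110), a P450 of the carotenoid hydroxylase family, was at 37.4, 37.9 and 35.4 RPKM in Fe-deficient rosettes, against 64.8, 65.5 and 61.3 RPKM in controls (log2 fold change -0.78, SE 0.0483, adjusted p 0.000777). Cytochromes P450 as a class had 2 lower and 2 higher genes of 123 tested, against 1.28% and 0.679% of all genes tested. The median of the class was 0.02. OASA1 (AT4G14880), cytosolic cysteine synthase, was at 65.3% of the control mean (adjusted p 0.00863), narrowly lost without Fe-deficient replicate 2 or control replicate 1 (0.0508 and 0.0594). PAP10 (AT2G16430), a purple acid phosphatase with a binuclear metal centre, was at 25, 26.2 and 26.2 RPKM in Fe-deficient rosettes, against 40.8, 39 and 38.2 RPKM in controls, a fall of 0.60 (SE 0.0468, adjusted p 0.00238). Of 10 tested phosphate-starvation genes, none was called, at adjusted p of 0.26 or more. PAP10 overlaps AT2G06625 on the opposite strand and shares a near-identical stretch with it.

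COR413IM1 and ABCE2 were among the modest falls with the lowest adjusted p. COR413IM1 (AT1G29395), a cold-induced protein of the chloroplast inner envelope, was at 32.8, 35.8 and 34.5 RPKM in Fe-deficient rosettes, against 69.7, 61.6 and 62.8 RPKM in controls (log2 fold change -0.90, SE 0.0634, adjusted p 0.00138). ABCE2 (AT4G19210), an ABC protein with iron-sulfur clusters that recycles ribosomes, was at 34.7, 34.7 and 35.2 RPKM in Fe-deficient rosettes, against 61, 61.6 and 63.8 RPKM in controls (log2 fold change -0.82, SE 0.0386, adjusted p 0.000235). Every Fe-deficient value of both genes lay below every control value, as it did in all 169 modest falls. Of 7 tested genes of sugar starvation, 3 fell and none rose, with a median of -0.42. These were the asparagine synthetase ASN1 (AT3G47340), TPS11 (AT2G18700) of trehalose phosphate metabolism and DIN10 (AT5G20250) of raffinose metabolism. ASN1 was at 2.24, 2.66 and 2.34 RPKM in Fe-deficient rosettes, against 6.18, 5.16 and 8.87 RPKM in controls (log2 fold change -1.28, adjusted p 0.0337), and TPS11 and DIN10 stood at 60.5% and 74.6% of the control mean. Each lost its call in 4 or more of the 6 fits without 1 library. ASN1 was lost without any Fe-deficient library or control replicate 1 (0.0836 to 0.133), TPS11 without Fe-deficient replicate 3 or any control library (0.0885 to 0.121) and DIN10 without any library (0.0522 to 0.0973). ASN1 and DIN10 overlap a gene on the opposite strand.

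Transcription factors outside the iron list changed in both directions. MEE3 (AT2G21650), a homeodomain-like factor, stood at 9.94, 9.19 and 9.89 RPKM in Fe-deficient rosettes, against 47.2, 46.7 and 49.8 RPKM in controls (log2 fold change -2.25, SE 0.0549, adjusted p 1.46e-05). AT5G45410, a B-box zinc finger gene, fell by 2.02 (adjusted p 0.000986), but it overlaps AT5G45400 on the opposite strand and shares a near-identical stretch with it. MYB3 (AT1G22640) and RL4 (AT2G18328) fell modestly, by 0.73 and 0.90 (adjusted p 0.00495 and 0.000828), with RL4 at 49.3, 52.2 and 46.4 RPKM in Fe-deficient rosettes, against 88.9, 95.2 and 92.7 RPKM in controls. NAP (AT1G69490), a NAC factor of leaf senescence, was at 3.2, 5.35 and 5.25 RPKM in Fe-deficient rosettes, against 18.3, 13.1 and 11.2 RPKM in controls. Its fall of 1.53 (adjusted p 0.0424) was not called without any 1 library (0.0624 to 0.146). On the rising side, GATA12 (AT5G25830) was at 10.6, 12.4 and 11.4 RPKM in Fe-deficient rosettes, against 1, 1.12 and 1.31 RPKM in controls (log2 fold change 2.87, SE 0.109, adjusted p 7.92e-05). DOF2 (AT3G21270) rose by 0.87 (adjusted p 0.00355), with every Fe-deficient value above every control value, as in all 57 modest rises. Auxin response factors split, ARF11 (AT2G46530) standing at 46.5% of the control mean and ARF18 (AT3G61830) at 168%. ARF11 lost its call without Fe-deficient replicate 3 or control replicate 2 (0.0535 and 0.0562) and ARF18 without any 1 library (0.0689 to 0.139).

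Modest rises were fewer and less firm. Of 23 tested aquaporins, channels for water and small solutes, 3 rose and none fell, against 0.679% and 1.28% of all genes tested. GAMMA-TIP (AT2G36830) of the vacuole membrane was at 443, 459 and 439 RPKM in Fe-deficient rosettes, against 363, 378 and 362 RPKM in controls, and PIP1B (AT2G45960) of the plasma membrane at 690, 722 and 690 RPKM, against 580, 555 and 521 RPKM. With log2 fold changes of 0.28 and 0.34 (adjusted p 0.0312 and 0.0404), both calls were lost without any 1 library (0.0618 to 0.154). The third, PIP1;5 (AT4G23400), at 129% of the control mean, was called only without Fe-deficient replicate 1 (0.0896 to 0.144 otherwise). CCS (AT1G12520), which delivers copper to superoxide dismutase, was at 104, 91.6 and 98 RPKM in Fe-deficient rosettes, against 66.9, 66.8 and 69.3 RPKM in controls (log2 fold change 0.53, SE 0.055, adjusted p 0.00814, and 0.0602 and 0.0559 without control replicates 1 and 2). It was the 1 called gene of 13 in the copper list. Firmer were MEE31 (AT3G02570), mannose-6-phosphate isomerase, and BIM1 (AT5G08130), a bHLH factor of brassinosteroid signalling, which rose by 0.66 and 0.44 (adjusted p 0.000944 and 0.00564) and were called in every fit without 1 library. MEE31 overlaps AT3G02560 on the opposite strand.

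Several response programmes showed no called gene. None of 15 clock genes was called. GI had the lowest adjusted p, 0.121, with a log2 fold change of -0.71, and the list's median was -0.24. Aliphatic glucosinolate synthesis had 19 of 20 positive values and a median of 0.25, between 0.21 and 0.32 over all alternatives, with CYP83A1 nearest to the threshold at 0.24 (adjusted p 0.0927). In 9 of the 20 genes every Fe-deficient value exceeded every control value, a share that was 10% among all genes tested. Flavonoid genes had a median of 0.29 over 12 genes but with overlapping groups throughout, and the lowest adjusted p was 0.347. Jasmonate genes, at a median of 0.05 over 14, salicylate genes, at 0.07 over 10, and cold and abscisic acid genes, at -0.09 over 14, were not called either. Among 49 WRKY factors, 71 oxygenases dependent on 2-oxoglutarate and ferrous iron, 158 heat shock genes and 228 pentatricopeptide repeat genes, 1 heat shock gene was called, and it was higher. For the repeat genes 151 values were negative, with a median of -0.05. Protein kinases had 12 lower and 11 higher genes of 1011 (1.19% and 1.09%), against 1.28% and 0.679% of all genes tested. Those counts were 1 to 10 and 3 to 7 when 1 library was left out.

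Other large falls lay outside the lists. AT3G49160, a pyruvate kinase family gene named here after its value was seen, stood at 1.73% of the control mean (log2 fold change -4.16, adjusted p 0.000426), and it overlaps and shares a near-identical stretch with AT3G49155 on the opposite strand. AT2G36885, annotated as a translation initiation factor, was at 1.88, 1.66 and 2.21 RPKM in Fe-deficient rosettes, against 32.3, 33.8 and 32.6 RPKM in controls (log2 fold change -3.80, SE 0.096, adjusted p 1.7e-05). AT3G43670, a copper amine oxidase family gene, fell by 3.48 (adjusted p 0.00112), and AT1G68650, an uncharacterised membrane protein gene overlapping AT1G68660, by 3.25 (adjusted p 0.00564). AT5G59400, annotated as a PGR5-like A protein, was at 2.08, 1.27 and 1.28 RPKM in Fe-deficient rosettes, against 10.2, 9.66 and 10.1 RPKM in controls (log2 fold change -2.39, SE 0.163, adjusted p 0.00119), with AT5G59410 overlapping it on the opposite strand and sharing a near-identical stretch. In the family of transmembrane 14C proteins 2 of 7 fell, AT3G20510 by 1.89 and AT3G57280 by 1.13. AT3G20510 lost its call without any 1 control library (0.0681 to 0.0781). AT4G25030, annotated as a kinase, fell by 1.69 (adjusted p 0.0085, and 0.056 without control replicate 1).

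Several of the largest rises belong to loci to which the reference gives no gene name. AT1G47395 and AT1G47400, neighbours on chromosome 1, were at 925, 792 and 830 RPKM and at 457, 375 and 400 RPKM in Fe-deficient rosettes, against 8.89, 15.1 and 8.89 RPKM and 4.52, 6.38 and 4.52 RPKM in controls. No Fe-deficient value of either locus came near a control value. AT4G36700, a cupin family gene, was at 58, 53.6 and 65.5 RPKM in Fe-deficient rosettes and at or below 0.62 RPKM in every control library. AT2G14247 was at 478, 446 and 420 RPKM in Fe-deficient rosettes, against 5.02, 5.68 and 7.69 RPKM in controls (log2 fold change 6.10, SE 0.148, adjusted p 1.46e-05), and AT2G06085 overlaps it on the opposite strand with a near-identical stretch. ORG1 (AT5G53450) and CGLD27 (AT5G67370), annotated as a DUF1230 family gene, rose by 4.40 and 3.05, with CGLD27 at 445, 386 and 367 RPKM in Fe-deficient rosettes, against 51.3, 54.7 and 38.9 RPKM in controls. RSH2 (AT3G14050), a synthetase of the plastid alarmone guanosine tetraphosphate, was at 57.8, 62 and 64.2 RPKM in Fe-deficient rosettes, against 12.5, 11.2 and 11.7 RPKM in controls (log2 fold change 2.33, SE 0.0639, adjusted p 2.1e-05).

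Called genes often lay side by side. In 33 pairs of immediate neighbours both genes were called, 15 pairs lower and 18 higher, and in all 33 the directions were the same. A called neighbour was present for 12.6% of lower and 24.8% of higher genes, against 2.65% of tested genes. The pairs ran in tandem in 16 cases, divergently in 12 and convergently in 5, and 2 pairs overlapped. FED A and IRT3, a zinc and iron transporter gene, end 7 bases apart and fell by 1.58 and 1.55. CAT3 and CAT1 lie in tandem 95 bases apart, and KEA5, a potassium antiporter, shares a 497-base upstream interval with NEET and fell by 0.88 (adjusted p 0.00376). Reads that run past the end of a gene were not examined, and their part in these pairs was not tested.

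The authors' deposited table carries its own comparison of the same 6 libraries, so a shared direction is no separate support. Of the 19006 genes tested here, 352 had an authors' Z-test p-value under 0.05. Of the 169 genes with modest falls, all 169 had a negative log2 fold change in the authors' deposited table, and 46 had a p-value under 0.05 there. For the 57 modest rises, 14 reached that p-value in the authors' deposited table.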

How the data were processed

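Per the submitters' processing notes, reads were handled with bcl2fastq 1.8.4, Trimmomatic 0.35, Bowtie2 2.0.6, edgeR 3.12.1 and limma 3.26.9 on build TAIR10, without roles or order. The deposited rosette values behave as RPKM equalised across the 6 libraries: multiplied by the kilobases of each reference transcript, library totals were 1128598 to 1131654. Equalisation removes any change common to most genes and leaves ties among abundant genes. Read depth is unknown, so no counting interval is given. The deposited table also holds the authors' p-value, called a Z-test in the file headers, and their log2 fold change. Strand use in counting is not given in the sources used here, so reads of overlapping genes on opposite strands cannot be told apart. Of 372 called genes, 110 overlap another gene and 60 share a stretch of at least 100 bases at 98% identity. The search for such stretches covered both strands and did not set overlapping genes aside. For an overlapping pair the stretch can therefore be the overlap itself, and the 2 counts are not separate.

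Transgene rows (4) were left out. Values were compared as log2(RPKM + 0.5) with limma 3.58.1 in R 4.3.3 (lmFit, eBayes with a trend, two-sided, Benjamini-Hochberg adjustment over 19006 genes), and called at an adjusted p under 0.05. The script was tested on simulated data. Fold changes on this scale understate low genes. An exact permutation of 3 against 3 cannot give p below 0.1. The members and lists were chosen with earlier results of these data known, and small families after their values were seen. Named genes were the 4 largest called members per list and direction, the 15 most abundant and 10 lowest-p modest falls, ranks 6 to 20 of the falls and 6 to 15 of the rises, the 3 largest in classes with at least 3 calls, and the 6 largest transcription factors per direction. Genes named outside that rule (PEX14, CYTC-2, TSO2, AT2G26500 and others) were chosen after their values were seen. Gene names, positions and promoter sequences are from RefSeq TAIR10.1; promoters matched 18819 tested genes, and 8 called loci are not in that reference. Alternatives were another pseudocount, filter, scaling, weights, variance trend, a replicate block and each library left out. 1 promoter sequence is not reported here.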

Additional observations from a re-analysis of the deposited data

How the results depend on the processing

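The count of 372 changed genes was 559 with array weights and 188 with a replicate block, and 167 to 330 without each library in turn. Genes lower numbered 371 and 107 under the same 2 settings and 95 to 230 without 1 library. Genes higher numbered 81 with the block and 72 to 100 without 1 library, and genes changed at least 2-fold 119 to 142. Falls of less than 2-fold, 169 as reported, numbered 256 at a minimum mean of 5 RPKM, 291 with array weights, 46 with the block and 36 to 157 without 1 library. Rises of less than 2-fold, 57 as reported, numbered 108, 109, 19 and 11 to 31 in the same order, and 32 without a variance trend. Every other alternative stayed within 1.5 times. Whether the replicate numbers pair the samples is not known. Deviations of same-numbered libraries correlated at 0.088, -0.160 and 0.247, and those of other pairs between the groups at -0.309 to 0.244. With so few libraries these values cannot decide it. With the block, 172 of the 372 genes were called. Of 105 single genes followed, 62 were called under every setting and none reversed; 32 were lost without a filter on low values. The cause of these moves was not tested. With 3 libraries a group and unknown depth, no limit of detection can be given for a single gene.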
